A study of Homo sapiens with 4 samples.

Results

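The transcripts described here are those of 43 genes of S-phase entry and DNA replication, from origin licensing to histone supply, in SK-BR-3, an established HER2-positive human breast cancer cell line with a missense-mutant p53. The 43 genes were listed by name and all 43 had a probe set that names a single gene, out of 19775 genes with such a probe set. Each gene was read on its brightest one, by log2 signal averaged over the arrays. They fall into 5 sub-groups of 16 origin licensing and helicase genes, 14 polymerase and clamp genes, 4 nucleotide supply genes, 5 E2F and cyclin E regulators, and 4 genes of chromatin assembly and histone mRNA. The cells carried either a p53 shRNA vector or its control after puromycin selection, and each of these was collected with or without siRNA against Pontin. That gave 4 groups with 1 Affymetrix array each: control shRNA alone, p53 shRNA alone, Pontin siRNA on the control shRNA background, and the combination of both knockdowns. The cells were taken 24 h after siRNA transfection, with 200 ng of total RNA labelled for each. The arms without Pontin siRNA have titles that read sicon, which the labels do not explain, and the labels do not say whether separately selected cells were used.

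Before S phase, ORC, CDC6 and CDT1 load the MCM2 to MCM7 ring onto origins. CDC45 and the GINS complex then turn the ring into the active helicase, and the polymerases, the PCNA clamp and its RFC loader copy the strands. Most of these genes are known targets of the E2F factors, which are held in check by the retinoblastoma proteins until cyclin E and CDK2 act, so their transcripts as a group are widely read as a sign of cycling cells.

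No group had a second array, so every comparison is given here in a pair of matched ratios, without a p-value. A limma fit that takes the pairs as replicates is given among the alternatives at the end. A p53 shRNA ratio was taken once over control shRNA and once, with Pontin siRNA present, over Pontin siRNA. A Pontin siRNA ratio was taken once in control shRNA cells and once in p53 shRNA cells. The 2 ratios of a knockdown share no array, but the p53 and the Pontin ratios are drawn from the same 4 arrays. A gene is called lower or higher where both of its ratios lie on that side by at least 1.5-fold, 0.58 in log2. All 43 genes passed the signal filter, which kept 12066 genes, and 41 of them lay among the 7744 genes at or above the 75th percentile of signal (110.3), termed bright genes below. E2F1 and GINS4 were dimmer than that. In bulk samples, fewer cells in S phase and less RNA per cell cannot be told apart.

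RUVBL1, the Pontin gene, read 477.7 and 398.2 without and 127.4 and 65.8 with the siRNA, given first for control and then for p53 shRNA cells. Depletion of the p53 shRNA's own target was not checked. SK-BR-3 markers were present (ERBB2 between 4823 and 5581, KRT19 between 9308 and 11279). Among them the luminal regulators GATA3 and TFAP2B were lower in both p53 pairs, GATA3 at -0.96 and -0.67 and TFAP2B at -0.47 and -0.54, a larger size than any mean of the 43 genes, and the part of this in the ratios below was not tested. The leukocyte marker PTPRC stayed at or below 8.3. Of the other markers of immune, endothelial, fibroblast and basal cells, COL1A1 alone exceeded 100 in signal, at 152.9 to 175.9. Of the array controls, the 3' to 5' signal ratio of ACTB, a gauge of RNA integrity, was 3.21 on the control array, 3.48 after p53 knockdown, 2.66 after Pontin knockdown and 2.96 after both. In each pair it was thus higher with p53 shRNA, and in each pair lower with Pontin siRNA. That of GAPDH lay between 0.972 and 1.04 with no such order. The part of RNA integrity in the ratios below was not tested. The 18 hybridization control probe sets averaged 1.42 times the control array on the array with both knockdowns, which enters the second ratio of each knockdown.

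With p53 shRNA the replication genes sat slightly below their partner arrays. Of the 43, 30 were below 0 in both pairs, 6 were above 0 in both and 7 were mixed. Among all genes kept, 32.2% were below 0 in both pairs and 30.6% above, and among bright genes 36.6% and 30.1%. The median of the members' mean log2 ratio was -0.15, with pair medians of -0.16 and -0.11, where the median of all genes kept was -0.0023. The middle 50% of members lay between -0.22 and -0.026. Sizes were small: 0 of the 43 were called lower and 0 were called higher, against 0.862% and 1.38% of all genes kept. Bright genes, to which most members belong, were called less often, with 32 of 7744 lower and 17 higher. The 2 ratios of a member differed by a median of 0.12, and those of a bright gene by 0.12 as well, so that a single ratio of this size is within what the pairs differ by. The share below 0 was thus high for these genes while no single member stood out by size. The genes were chosen with earlier results of these data known, so this share is a description and not a test. The 30 genes of G2/M and mitosis listed for context, such as CDK1 and PLK1, were below 0 in both pairs in 15 cases, with a median of -0.054. The median of bright genes was -0.012.

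**Figure D1:**
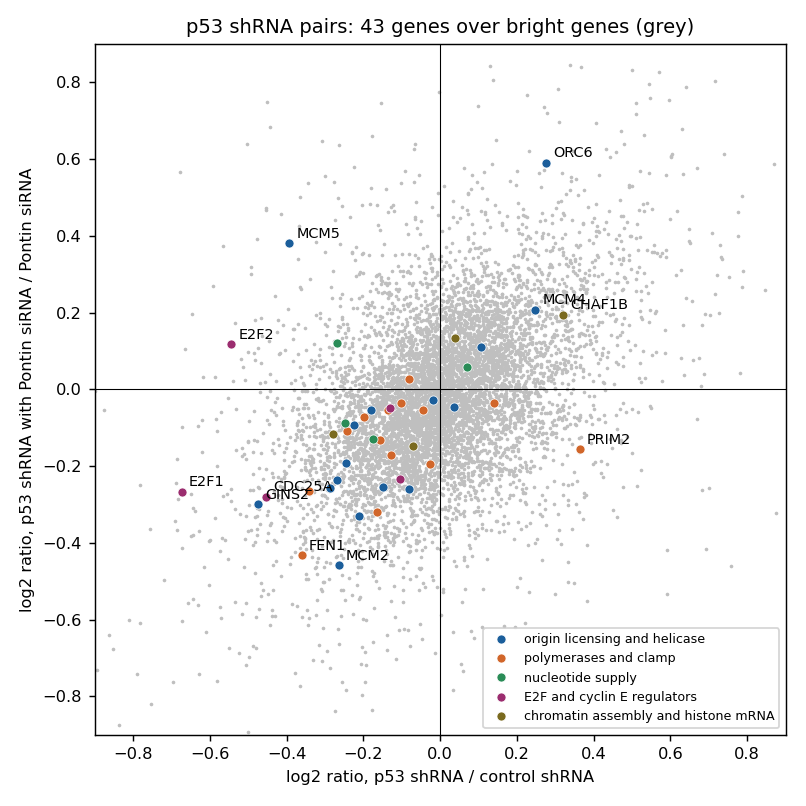
Log2 ratios of the 2 p53 shRNA pairs, without Pontin siRNA on the horizontal and with it on the vertical axis, for the 43 replication genes (coloured by sub-group) over the bright genes (grey, those beyond the axis limits not drawn). Of the coloured points, 30 lie at the lower left and 6 in the upper right, with MCM5 and E2F2 at the upper left and PRIM2 at the lower right.

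The bases before the starts of the members were also examined for the E2F consensus. The words TTTCCCGC, TTTCGCGC, TTTGCCGC and TTTGGCGC were searched on both strands in the 250 bases before each gene start, using RefSeq promoters of GRCh38.p14 and the first entry of each symbol. Of 38 members with an entry, 15 (39.5%) held a match, compared with 2.79% of all 27305 promoters of that length. As most members are known E2F targets, a high share follows from the choice of genes and says nothing of the p53 ratios. The CCAAT box, searched as CCAAT on both strands, was in 21 members (55.3%) and in 33.0% of all promoters. Members below 0 in both p53 pairs held the E2F words in 13 of 27 cases and the remaining members in 2 of 11, a description that was not tested. E2F sites can also lie past the start or depart from these words, so a window without a match says nothing of the factor.

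Printed here, 5' to 3' on the strand of the gene, are the 250 bases before the start of E2F1 (chr20:33686386-33686635, minus strand), GINS2 (chr16:85688955-85689204, minus strand), CDC25A (chr3:48188418-48188667, minus strand) and MCM7 (chr7:100101398-100101647, minus strand), in GRCh38.p14. They are the 4 members with the lowest mean p53 ratio among those with an E2F match, and the capitals mark the matches.
E2F1: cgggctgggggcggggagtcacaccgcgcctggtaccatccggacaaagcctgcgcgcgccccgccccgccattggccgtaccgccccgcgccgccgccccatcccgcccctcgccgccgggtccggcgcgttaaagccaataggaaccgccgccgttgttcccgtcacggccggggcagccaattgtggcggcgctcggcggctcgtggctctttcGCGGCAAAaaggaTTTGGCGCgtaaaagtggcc
GINS2: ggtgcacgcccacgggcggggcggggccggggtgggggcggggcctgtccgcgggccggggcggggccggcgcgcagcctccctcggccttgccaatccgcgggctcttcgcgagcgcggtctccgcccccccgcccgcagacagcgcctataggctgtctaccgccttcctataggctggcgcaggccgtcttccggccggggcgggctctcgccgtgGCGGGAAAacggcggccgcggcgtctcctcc
CDC25A: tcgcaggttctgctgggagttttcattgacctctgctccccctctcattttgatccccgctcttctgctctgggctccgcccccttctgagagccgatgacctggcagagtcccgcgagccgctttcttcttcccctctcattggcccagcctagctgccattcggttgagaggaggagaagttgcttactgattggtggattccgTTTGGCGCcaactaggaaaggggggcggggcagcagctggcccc
MCM7: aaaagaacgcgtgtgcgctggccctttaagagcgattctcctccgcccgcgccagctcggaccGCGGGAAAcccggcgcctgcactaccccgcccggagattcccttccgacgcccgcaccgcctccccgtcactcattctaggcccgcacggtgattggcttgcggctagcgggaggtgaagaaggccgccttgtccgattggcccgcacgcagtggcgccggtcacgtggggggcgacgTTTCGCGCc
E2F1, whose product binds this motif, has a pair of matches that begin 33 and 20 bases before its start. GINS2 has 1, beginning 31 bases before the start, and CDC25A 1, at 44 bases. In MCM7 the matches begin 187 and 9 bases before the start of this transcript, 1 of 3 listed for the gene. Matches close to the start are thus present in each of these windows.

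Among the origin licensing genes, the loading factor CDC6 had signals of 2202 on the control array, 1806 after p53 knockdown, 2303 after Pontin knockdown and 1926 after both, an order kept for all signals that follow. Both p53 shRNA arrays read below both arrays without it, at log2 ratios of -0.29 and -0.26. The share of all genes kept whose arrays separate in this way was not taken, so a lack of overlap, here and below, is description only. Its partner CDT1, with signals of 577.9, 570.3, 485.0 and 475.9, had p53 ratios of only -0.02 and -0.03 and Pontin ratios of -0.25 and -0.26. These were read on an _x_at probe set, a type that can pick up related sequences, and the other CDT1 probe set, from 51.3 to 58.0, gave 0.14 in both Pontin pairs. The largest origin recognition subunit, ORC1, was near 0 in each p53 pair (0.04 and -0.05) and in each Pontin pair (0.09 and 0.01). ORC6, the smallest subunit of that complex, went the other way from most members. Its signals were 1349, 1633, 1128 and 1699, and the p53 ratios of 0.28 and 0.59 were the highest mean of the 43. ORC6 was read on its only single-gene probe set, of the same _x_at type.

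The 6 subunits of the MCM2 to MCM7 ring, which work in equal numbers, did not read alike on their brightest probe sets with p53 shRNA. MCM2 read 907.3, 755.4, 995.0 and 724.3, so that both p53 shRNA arrays lay below both others, with ratios of -0.26 and -0.46. MCM6 had signals of 1531, 1293, 1621 and 1420 and ratios of -0.24 and -0.19, again without overlap. MCM7 read 835.7, 721.7, 1111 and 883.9, at -0.21 and -0.33, with its lowest value in p53 shRNA cells and its highest in Pontin siRNA cells. An equally bright MCM7 probe set, from 746.8 to 1029, gave smaller p53 ratios of -0.06 and -0.08. MCM3 was at -0.18 and -0.05. In MCM5 the ratios had opposite signs, -0.39 and 0.38, from signals of 341.9, 260.3, 297.1 and 386.7. A dimmer MCM5 probe set, from 71.7 to 90.2, was not mixed, at -0.10 and -0.11 in the p53 pairs and at 0.23 and 0.22 in the Pontin pairs.

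MCM4 was above 0 in both p53 pairs (0.25 and 0.21), but this rests on 1 probe set. Its other probe sets of comparable use read -0.19 and -0.27 as the mean of the pairs, with signals from 374.2 to 829.6, whereas a dim one, from 53.5 to 87.2, gave 0.36. The remaining one had signals of at most 4.1. The direction of MCM4 therefore depends on the probe set. With Pontin siRNA the ring subunits ranged from -0.19 (MCM4) to 0.35 (MCM7) in mean ratio. MCM3 was at 0.28 and 0.41, and MCM7 at 0.41 and 0.29, where the other MCM7 probe set gave a mean of 0.39.

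The factors that activate the ring were mostly below 0 with p53 shRNA. GINS2, a subunit of the GINS complex, read 552.9, 398.1, 567.0 and 460.8, with ratios of -0.47 and -0.30 and no overlap between arrays with and without p53 shRNA. MCM10, a scaffold of the replication fork, was at -0.27 and -0.24, and its other probe sets gave means of -0.16 and -0.36. CDC45, the third part of the active helicase, read 277.1, 250.0, 334.4 and 280.5, at -0.15 and -0.25. Of the remaining GINS subunits, GINS1 was at -0.08 and -0.26 and GINS4 at -0.22 and -0.09. GINS3 was at 0.11 in both pairs, although its second probe set gave a mean of -0.23. With Pontin siRNA this complex split on the brightest probe sets. GINS4 was at 0.17 and 0.30, GINS2 at 0.04 and 0.21, GINS1 at -0.07 and -0.25, and GINS3 at -0.23 in both pairs. The split depends on the probe set, as a dim GINS4 one, from 19.3 to 36.5, gave -0.92 and -0.49. The second GINS3 probe set gave 0.036 and -0.0037, whereas GINS2 stayed above 0 on its dim ones. Over the 16 licensing and helicase genes, 11 were below 0 in both p53 pairs, with a median of -0.16.

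**Figure D2:**
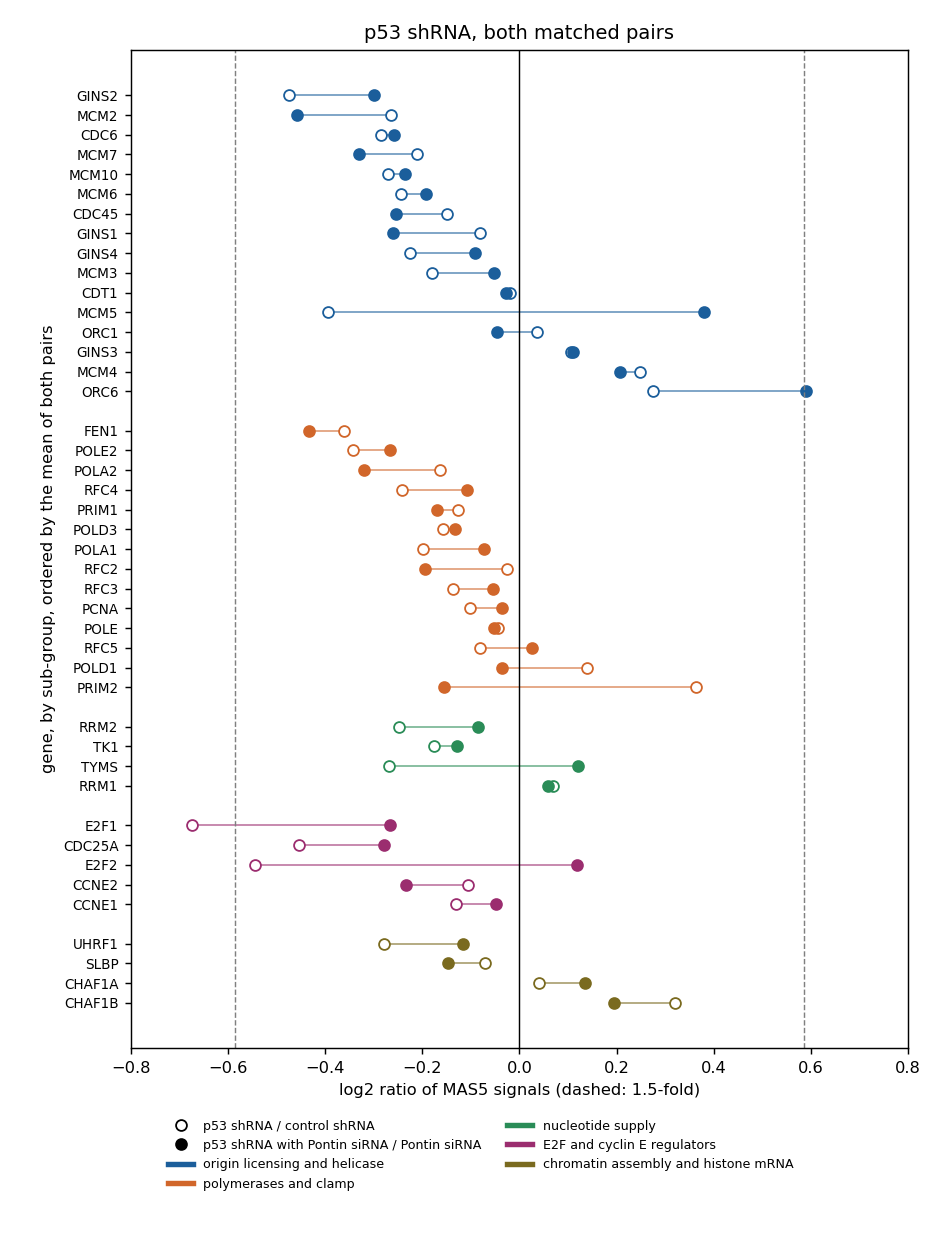
Log2 ratios with p53 shRNA for each of the 43 genes by sub-group, as an open circle without and a filled circle with Pontin siRNA, joined by a line, with 1.5-fold marked by dashed lines. Most lines lie left of 0, E2F1 passes 1.5-fold lower without Pontin siRNA (-0.67) and ORC6 passes 1.5-fold higher with it (0.59), and no gene passes in both pairs.

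FEN1, the nuclease that trims the flaps of Okazaki fragments, had the lowest mean p53 ratio of any bright member. It read 2305, 1796, 2479 and 1837, a ratio of -0.36 and -0.43, and its second probe set gave a mean of -0.25. The 2 arrays with p53 shRNA were close to each other and lay below both others, whether or not Pontin siRNA was present. In fold, the mean of its ratios was 0.760. It lay at percentile 2.16 of the bright genes ranked by mean p53 ratio, so that about that percentage of bright genes were lower still. FEN1 was the only member at -0.32 or lower in both pairs, where 3.46% of all genes kept and 151 of the 7744 bright genes were.

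Polymerase subunits leaned the same way by smaller amounts. POLE2, the second subunit of the leading-strand polymerase epsilon, read 439.3, 346.4, 426.6 and 354.8, at -0.34 and -0.27 with p53 shRNA, without overlap. Its catalytic partner POLE was at -0.04 and -0.05. In the primase complex that starts each strand, POLA2 was at -0.16 and -0.32, POLA1 at -0.20 and -0.07, and PRIM1 at -0.13 and -0.17. PRIM2 had opposite signs, 0.36 and -0.16, from signals between 103.9 and 152.8. For the lagging-strand polymerase delta, POLD3 was at -0.16 and -0.13, while the catalytic subunit POLD1 was at 0.14 and -0.04. Of these 8 polymerase and primase genes, 6 were below 0 in both pairs and 0 above 0 in both.

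PCNA, the sliding clamp, gave high and even signals of 4886, 4556, 4633 and 4520, with p53 ratios of -0.10 and -0.04. Its loader subunits RFC2 to RFC5 had a median of -0.10, from -0.17 for RFC4 to -0.03 for RFC5, which was mixed. Taken over all 14 polymerase and clamp genes, 11 were below 0 in both p53 pairs and the median was -0.12. With Pontin siRNA 7 of the 14 were above 0 in both pairs and 3 below. RFC5 was at 0.26 and 0.37, POLD3 at 0.24 and 0.26, POLA1 at 0.15 and 0.28, PRIM1 at 0.23 and 0.19, and POLE at 0.20 and 0.19. RFC5 was not uniform over its probe sets, with Pontin means of 0.61 on a dimmer one and -0.28 on another.

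TK1, which salvages thymidine and is an S-phase gene, had the highest mean Pontin ratio of the 43. Its signals were 1914, 1695, 2684 and 2455, so that both Pontin siRNA arrays lay above both others, with ratios of 0.49 and 0.53. The mean was 1.42-fold, at percentile 98.8 of bright genes, and a second TK1 probe set gave a mean of 0.40. With p53 shRNA TK1 was at -0.18 and -0.13. RRM1 is the large subunit of ribonucleotide reductase, the enzyme that makes deoxyribonucleotides. Its brightest probe set was at 0.07 and 0.06 in the p53 pairs and at -0.09 and -0.10 in the Pontin pairs. A second bright one, with signals from 233.0 to 304.1, turned both, to -0.16 and -0.17 and to 0.23 and 0.21, so neither direction of RRM1 is settled.

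RRM2, the small and cell-cycle-regulated subunit, read 3373, 2839, 3600 and 3391, at -0.25 and -0.09 with p53 shRNA. Its second bright probe set, with signals from 2552 to 3742, gave a p53 mean of -0.29, but a Pontin mean of -0.26 where the first gave 0.17. The Pontin direction of RRM2 is therefore not settled. TYMS, the thymidylate synthase gene, was mixed in both knockdowns, at -0.27 and 0.12 in the p53 pairs and at -0.19 and 0.20 in the Pontin pairs. This rests on its brightest probe set, since a second bright one, from 573.0 to 699.4, gave p53 ratios of -0.24 and -0.14 and Pontin ratios of 0.05 and 0.15.

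All 5 E2F and cyclin E regulators had a mean p53 ratio below 0, with a median of -0.21, and 4 were below 0 in both pairs. E2F1, an activator of S-phase genes, read 57.1, 35.8, 61.1 and 50.8, at -0.67 and -0.27, the lowest mean of the 43 but at low signal. Both p53 shRNA values were under both others. Its second probe set, at 37.7, 28.0, 49.6 and 56.0, overlapped, with a mean of -0.13. E2F2, another activator, was at -0.54 and 0.12, so it was lower in the pair without Pontin siRNA and not in the other. CDC25A, the phosphatase that activates CDK2, read 242.8, 177.2, 200.5 and 165.2, at -0.45 and -0.28 in the p53 pairs and at -0.28 and -0.10 in the Pontin pairs. Its other probe sets gave smaller p53 means, of -0.17 on a bright one and -0.069 with opposite signs on one from 43.7 to 65.9, and the mean over the gene's probe sets was -0.20.

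The cyclin E genes parted with Pontin siRNA. CCNE1 read 703.7, 642.7, 835.8 and 807.8, at 0.25 and 0.33, and CCNE2 read 245.2, 227.9, 188.7 and 160.4, at -0.38 and -0.51. For CCNE1 both Pontin siRNA arrays were above both others, and for CCNE2 both were below. CCNE2 had the lowest mean Pontin ratio of the 43, a fold of 0.736 at percentile 3.90 of bright genes. Its dimmer probe set, with signals from 17.9 to 31.8, had opposite signs, 0.13 and -0.45, with a mean of -0.16. With p53 shRNA the pair differed less, at -0.13 and -0.05 for CCNE1 and -0.11 and -0.23 for CCNE2.

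**Figure D3:**
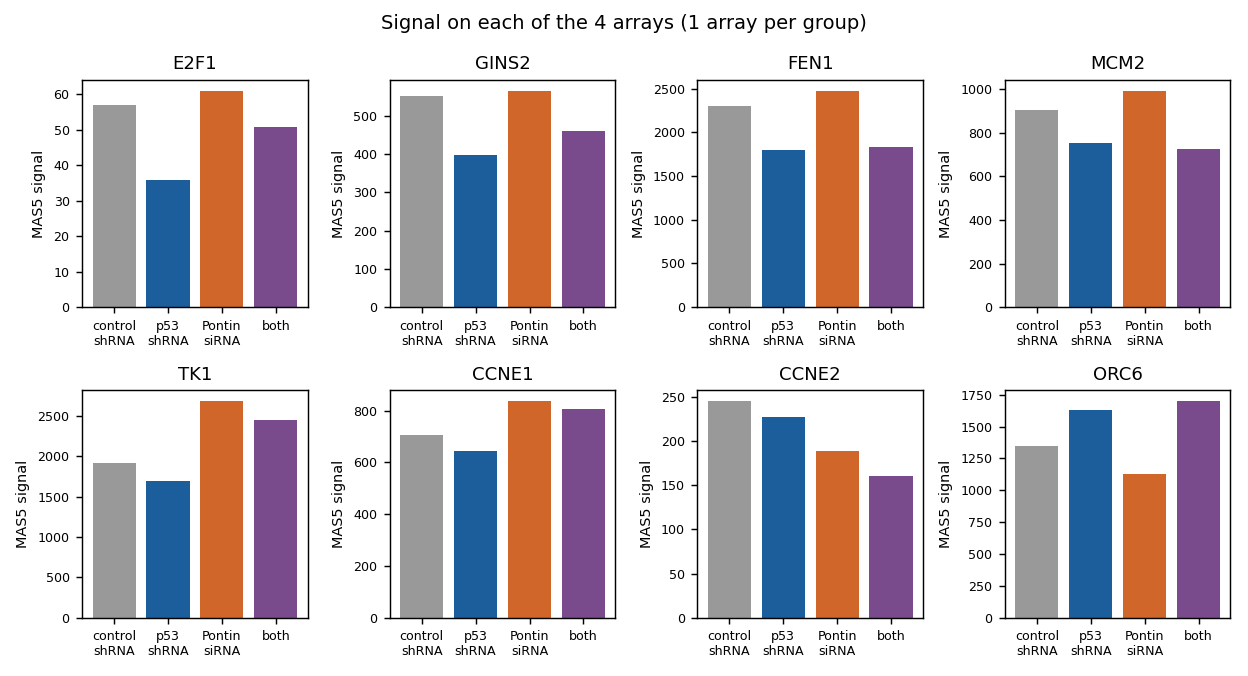
MAS5 signal on each of the 4 arrays for 8 genes, as bars from 0, with control shRNA, p53 shRNA, Pontin siRNA and both knockdowns from left to right. E2F1, GINS2, FEN1 and MCM2 are lower on both p53 shRNA arrays, TK1 and CCNE1 are higher and CCNE2 lower on both Pontin siRNA arrays, and ORC6 is higher on both p53 shRNA arrays.

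Genes of chromatin assembly were divided with p53 shRNA. CHAF1B, a subunit of the CAF-1 histone chaperone, read 151.4, 189.1, 174.8 and 200.1, at 0.32 and 0.20, above 0 in both pairs. CHAF1A, another CAF-1 subunit, was at 0.04 and 0.13, with means of -0.23 and -0.14 on other probe sets. UHRF1, which brings maintenance methylation to the fork, was at -0.28 and -0.12, and SLBP, which binds the stem-loop of histone mRNA, at -0.07 and -0.15. With Pontin siRNA CHAF1B was at 0.21 and 0.08, CHAF1A at 0.11 and 0.20, SLBP at 0.04 and -0.03, and UHRF1 at -0.20 and -0.04.

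With Pontin siRNA the 43 genes as a group lay slightly above 0, with less uniformity than for p53 shRNA. There were 21 members above 0 in both pairs, 12 below 0 in both and 10 mixed. Among genes kept 33.9% were above and 32.0% below in both pairs, and among bright genes 34.3% and 36.3%. The members' median was 0.069, with pair medians of 0.09 and 0.08, and that of all genes kept was 0.0098. Averaged over all probe sets of each gene the members' median was 0.051 and that of all genes 0.044, so the distance between them closed. By the 1.5-fold rule 0 members were called lower and 0 higher, against 1.24% and 1.16% of all genes kept. Of the 7744 bright genes, 85 were called lower and 14 higher. At a size of 0.32 in both pairs, TK1 was the only member higher and CCNE2 the only one lower, against 4.79% and 4.98% of all genes kept. Among the bright genes 168 were higher and 355 lower by that size. The G2/M and mitosis genes had a median of 0.034. Of the members not yet given for Pontin siRNA, CDC45 was at 0.27 and 0.17, RFC3 at 0.13 and 0.21, FEN1 at 0.10 and 0.03 and E2F1 at 0.10 and 0.50. CDC6 (0.07 and 0.09) and MCM6 (0.08 and 0.13) lay closer to 0, but a CDC6 probe set about as bright, from 1659 to 2146, gave -0.10 and -0.15. PCNA, at -0.08 and -0.01, RFC4, at -0.15 and -0.02, MCM10, at -0.09 and -0.06, and PRIM2, at -0.04 and -0.56, were below 0 in both pairs. A further MCM10 probe set of like signal, from 289.5 to 458.6, gave 0.22 and 0.38 instead. Opposite signs were seen for ORC6 (-0.26 and 0.06), MCM5 (-0.20 and 0.57), E2F2 (-0.21 and 0.45), MCM2 (0.13 and -0.06), RFC2 (0.13 and -0.03), POLD1 (0.15 and -0.03), POLA2 (0.09 and -0.06) and POLE2 (-0.04 and 0.03).

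**Figure D4:**
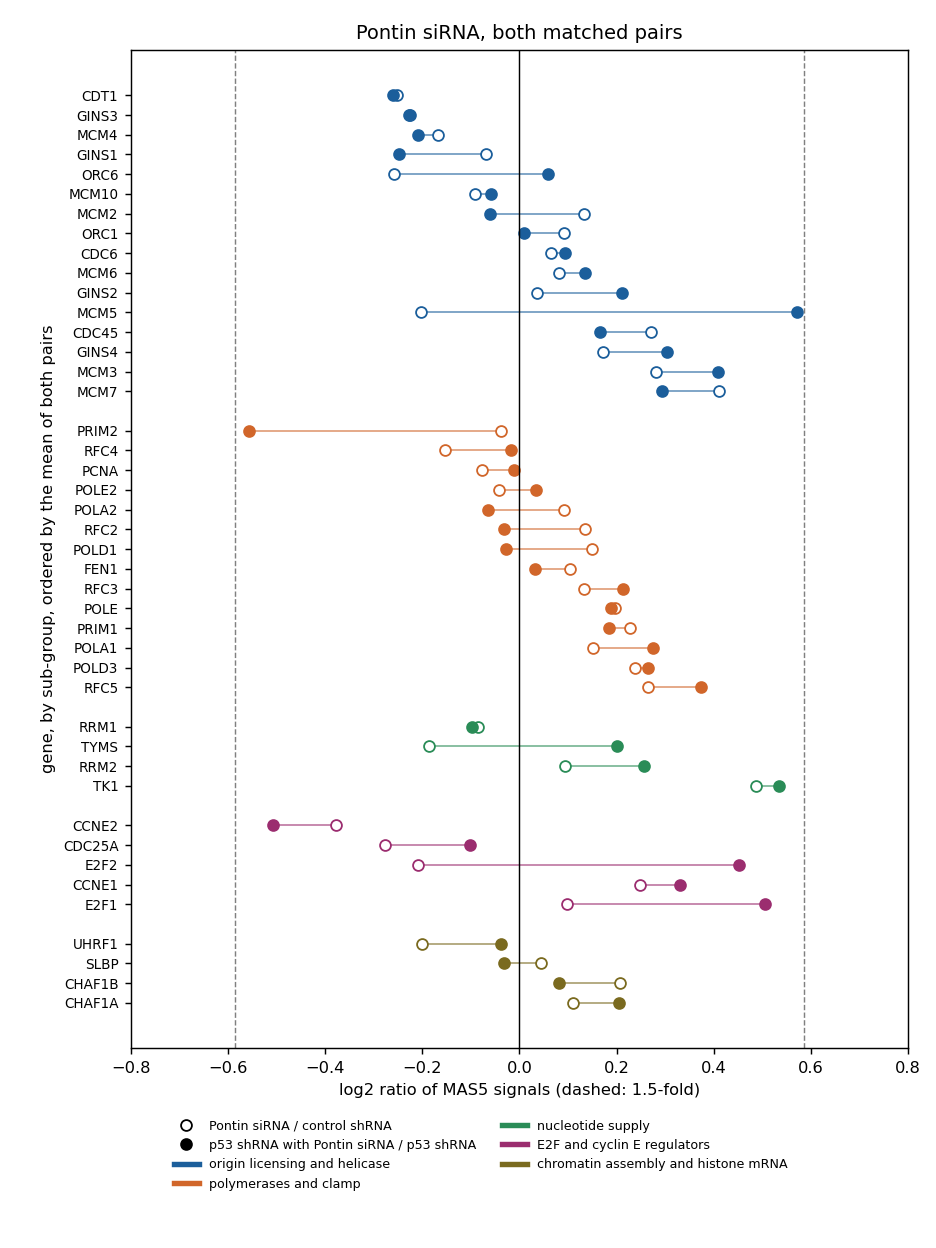
Log2 ratios with Pontin siRNA for the 43 genes by sub-group, as an open circle in control shRNA cells and a filled circle in p53 shRNA cells, with 1.5-fold marked by dashed lines. TK1 lies furthest right and CCNE2 furthest left by mean ratio, and the pairs of MCM5 and E2F2 lie on opposite sides of 0.

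Cells with both knockdowns were also set directly against the control, a comparison that shares its arrays with those above. The members' median was -0.059, with 23 below and 20 above 0, and the median of all genes kept was 0.0060. CCNE2, at -0.61, was the only member at least 1.5-fold lower, where 5.74% of genes kept were, and 0 were that much higher, where 7.49% were. Of the 7744 bright genes, 284 were that much lower and 167 that much higher. CDC25A followed CCNE2 at -0.56, and at the other end CHAF1B was at 0.40, TK1 at 0.36 and ORC6 at 0.33. The signal with both knockdowns departed most from the sum of the single log2 effects for MCM5 (0.77), E2F2 (0.66) and PRIM2 (-0.52). The median departure of the 43 was 0.033 with signs kept and 0.12 in absolute size. The departure of MCM5 rests on 1 probe set, as its other one, with signals from 71.7 to 90.2, departed by -0.010. For E2F2 a dimmer probe set, from 22.6 to 38.2, departed by 1.04, and PRIM2 had 1 probe set only.

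Further genes of the replication machinery were read from a second list of 49 genes, of which 48 had a single-gene probe set and all 48 passed the signal filter. With p53 shRNA 23 of them (47.9%) were below 0 in both pairs and 8 (16.7%) above, against 32.2% and 30.6% of all genes kept. Their median was -0.044 and 0 were called, where 0.862% of all genes kept were called lower and 1.38% higher. The 4 lowest were WDHD1, which couples the helicase to polymerase alpha (-0.37 and -0.77), CDCA7, an E2F-responsive partner of the remodeller HELLS (-0.45 and -0.40), the repressor E2F8 (-0.45 and -0.37) and DSCC1, of an alternative clamp loader (-0.47 and -0.31). The 4 highest were the ligase gene LIG1 (0.10 and 0.34), the E2F partner TFDP2 (0.35 and 0.09), the histone chaperone ASF1B (0.14 and 0.28) and CHTF18 (-0.01 and 0.29), which acts in the same loader as DSCC1. With Pontin siRNA 20 of the 48 (41.7%) were above 0 in both pairs and 17 (35.4%) below, against 33.9% and 32.0% of all genes kept. The median was 0.012 and 0 were called, where 1.24% of all genes kept were called lower and 1.16% higher. The median of the 43 members with p53 shRNA was thus further from 0 than that of the second list, a difference that was not tested. Both lists were chosen with earlier results of these data known.

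The 43 genes had 84 single-gene probe sets in all, and 17 genes had 1 only. Of the 41 probe sets not used above, 33 passed the signal filter. Their median mean p53 ratio was -0.16, with 27 below 0, and 22 had the sign of the brightest probe set of their gene. For Pontin siRNA their median was 0.10, with 14 below 0 and 20 of the same sign. Of the 12066 genes kept, 6097 had a mean p53 ratio below 0 and 5821 a mean Pontin ratio below 0. These further probe sets read the same genes in the same RNA on the same arrays, so they are not independent of the values above. Lower values with p53 shRNA were seen on most of them, while single genes often differed between probe sets. Of the 25 members with a further probe set above the filter, 16 had 1 sign of the mean p53 ratio on all of them. The other 9 were MCM4, MCM6, GINS2, GINS3, POLA2, POLD3, RFC5, RRM1 and CHAF1A. For the mean Pontin ratio 12 had 1 sign and 13 did not, namely CDC6, CDT1, MCM4, MCM6, MCM10, GINS3, GINS4, POLA2, POLD3, RFC5, RRM1, RRM2 and E2F2.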

How the data were processed

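Total RNA of 4 SK-BR-3 cultures was measured on 1 array of 54675 probe sets each. The authors deposited MAS5 signal intensity values on a linear scale, and the submitters' processing notes name MAS5 without a version. Trimmed by 2% at each end, every array had a mean of 150.02, which shows a common scaling. Scanner files and detection calls were not used here.

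Gene names came from the annotation of the platform, brought up to date by Entrez identifier. 41097 named 1 gene, of which 41043 matched the gene table, 1801 named several and 11777 had none listed. Signals were taken to log2 without further normalization or pseudocount, with 14 signals of 0, none in a member's probe set, set to 0.1. Genes whose mean log2 signal was at or above the median of probe sets (signal 15.3, without 62 control probe sets) were kept. Groups came from the transfection label. All 43 members are named. Of the second replication list, the 4 lowest and 4 highest by mean p53 ratio are named. The members and lists were chosen with earlier results of these data known. The call rule was tested on simulated data. Python 3.11.15, pandas 2.3.3, R 4.3.3 and limma 3.58.1 were used. Alternatives were quantile, cyclic loess and median normalization, the mean over probe sets, leaving out probe set types, other signal filters, a pseudocount of 16, a smaller fold for a call and an additive limma fit. The number of arrays limits the precision.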

Additional observations from a re-analysis of the deposited data

Results flagged for a closer look

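With 1 array per group, a difference between the cell backgrounds could not be tested for any gene. With p53 shRNA 7 of the 43 members had opposite signs without and with Pontin siRNA. Of the 12066 genes kept 4484 were mixed in this way, and of the 7744 bright genes 2576. The ratio with Pontin siRNA minus that without was 0.77 for MCM5, 0.66 for E2F2, 0.39 for TYMS and 0.11 for RFC5, and -0.52 for PRIM2, -0.18 for POLD1 and -0.082 for ORC1. With Pontin siRNA 10 members had opposite signs in control and p53 shRNA cells, where 4121 of the genes kept and 2276 of the bright genes were mixed. The second ratio minus the first, which for any gene equals the difference above, was again 0.77 for MCM5, 0.66 for E2F2, 0.39 for TYMS and -0.18 for POLD1. It was 0.32 for ORC6, 0.077 for POLE2, -0.19 for MCM2, -0.17 for RFC2, -0.16 for POLA2 and -0.077 for SLBP. None of these differences was tested, and those of RFC5, ORC1, POLE2 and SLBP are within the median difference between pairs of 0.12. The values of MCM5 and TYMS rest on the brightest probe set, since their next brightest gave -0.010 and 0.10.

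The hybridization control probe sets, which report on hybridization and not on the cells, averaged 1.42 times the control array on the array with both knockdowns. All 18 were higher there. Their part in the ratios of this array was not tested.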

How the results depend on the processing

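The members' median with p53 shRNA stayed below 0 under the 8 alternatives run on it, from -0.15 to -0.11, and the count below 0 in both pairs was 24 (of 33 members with a probe set left) to 30. Dropping the signal filter could not change the members' values, as all of them passed it, and keeping bright genes alone removed only E2F1 and GINS4. The Pontin median stayed above 0, from 0.051 to 0.10, with 17 (again of 33) to 22 above 0 in both pairs. That of both knockdowns over control stayed below 0, from -0.067 to -0.013, but its distance from all genes kept narrowed under 2 normalizations. It was -0.029 against -0.017 for all genes kept with quantile and -0.041 against -0.011 with cyclic loess normalization. With a smaller fold for a call, 0.32 in log2, 1 member was called lower with p53 shRNA (FEN1), and with Pontin siRNA 1 lower (CCNE2) and 1 higher (TK1). With the mean over probe sets 1 was called higher with Pontin siRNA, GINS2, whose mean ratio of 1.14 came with 2 dim probe sets. The additive limma fit, which takes the pairs as replicates with 1 residual degree of freedom, called 0 members at an adjusted p under 0.05. It called 0 of all genes kept as well, for either knockdown and in either direction, so this says nothing of the members in particular. Counts at an unadjusted p are left out, as the matching share over all genes kept was not taken. With the mean over probe sets 7 members changed the sign of their mean p53 ratio and 6 that of their Pontin ratio. The labels give no replicate numbers, so beside the matched pairs no replicate block could be fitted, and no array could be left out of a group. Without detection calls, how far a dim signal such as that of E2F1 lies above background was not assessed.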
